A study of Danio rerio with 6 samples.

Results

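The paralog group 1 (PG1) *hox* genes were followed in whole zebrafish embryos that lack the function of one of them, *hoxb1b*. The genes were taken from the count table by symbol, and all 4 of them, *hoxb1b*, *hoxb1a*, *hoxa1a* and *hoxc1a*, are listed among its 13466 genes. RNA came from pools of embryos at 18hpf, freed of chorion and yolk, that were homozygous for *hoxb1b*-/- (allele um197 in the study's methods) or were wildtype controls, with 3 libraries per genotype. No treatment was given, and embryos of both genotypes were kept at 28°C. The sources used here do not state whether mutant and wildtype embryos were siblings, how many embryos made a pool or whether each library had a pool of its own; the methods speak of 3 libraries for each sample. Parentage and genotype therefore cannot be told apart, and p-values measure the spread between these libraries, which may be technical.

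PG1 *hox* genes encode homeodomain transcription factors and lie at the 3′ end of the Hox clusters. Among *hox* genes, members of this group such as *hoxb1b* are switched on earliest and reach far forward in the neural tube, up to the level of rhombomere 4 (r4) of the hindbrain. The study does not describe such expression for *hoxa1a* or *hoxc1a*. In the model that the study gives, retinoic acid (RA) starts the expression of *hoxb1b*. PG1 proteins bind DNA together with the TALE cofactors of the Pbx, Meis and Prep families. In zebrafish, *hoxb1b* is expressed in the caudal hindbrain before rhombomeres form, whereas *hoxb1a* marks r4 and maintains its own expression there. *hoxa1a* is the PG1 gene of the hoxaa cluster, and *hoxc1a*, of the hoxca cluster, has no counterpart in the mouse.

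Total counts lay between 19139322 and 29146812 in the mutant libraries and between 19934858 and 23725696 in the wildtype libraries. Counts of libraries of one genotype differed by 1.46 to 1.96 times the sampling variance (chi-square per degree of freedom), so no pair of libraries was identical, whereas mutant and wildtype libraries differed by 51.4 to 70.5 times. Of the tested genes, 66.2% passed the test for a difference between genotypes, at an adjusted p under 0.05 from edgeR's quasi-likelihood test over 12471 genes, and 8.36% also changed by more than 2-fold, the study's own criterion. Of all tested genes 32.6% passed and were higher in mutants, and 33.6% passed and were lower. Markers of several tissues outside the hindbrain differed between genotypes. In the lists of markers and heat shock genes that follow, between 83.3% (epidermal) and 100% of the tested genes passed, against 66.2% of all tested genes. Summed muscle markers held 4669 to 4765 CPM (counts scaled to the TMM-normalized library size) in mutant libraries and 11075 to 11269 CPM in wildtype libraries. *actc1b* alone held 2023 CPM in mutant and 5601 CPM in wildtype libraries. Of the 10 muscle markers tested 7 fell, while *myod1* and *myog*, named as the 2 that rose, went up by 0.42 and 0.16 on the log2 scale. Summed erythroid markers held 673 to 689.7 CPM in mutant and 2291 to 2311 CPM in wildtype libraries. Of the 9 erythroid markers tested 8 fell, and *gata1a* (log2 fold change 0.01) did not pass the test. Tailbud and presomitic markers went the other way, with 450.0 to 461 CPM in mutant and 202 to 206 CPM in wildtype libraries, and all 9 of them rose. Of 6 notochord markers 4 rose and 2 fell, while their sum was lower in mutant (1903 to 1949 CPM) than in wildtype libraries (2564 to 2579 CPM). Summed epidermal markers overlapped, with 25307 to 25716 CPM in mutant and 25013 to 25715 CPM in wildtype libraries, although single genes differed. Of the 6 epidermal markers 3 rose, 2 fell and 1 did not pass the test. *krt4* fell, with 16165 CPM in mutant and 17891 CPM in wildtype libraries, while *krt5* rose, with 5139 and 3603 CPM. Heat shock genes summed to 7072 to 7183 CPM in mutant and 10197 to 10310 CPM in wildtype libraries. Most of that sum was *hspa8*, named for its share, with 5496 CPM in mutant and 6221 CPM in wildtype libraries. Of the 11 heat shock genes tested 9 fell and 2 rose. *hsp70.1* changed most, with 24.8 CPM in mutant and 319 CPM in wildtype libraries (log2 fold change -3.68), and *hsp90aa1.2* had 48.8 and 524 CPM. Summed neural markers differed less, with 1284 to 1299.7 CPM in mutant and 1213 to 1238 CPM in wildtype libraries. Of the 9 neural markers 3 rose and 5 fell, with a median log2 fold change of -0.18, and the sum was carried by *sox19a*, with 533 CPM in mutant and 454 CPM in wildtype libraries. None of the 13466 genes counted was at 0 in every library, so none of these markers could be. The part of these tissue differences in the values of the PG1 genes was not tested. As whole embryos were sequenced, fewer cells expressing a gene and less RNA per cell cannot be told apart.

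The PG1 genes did not move together. *hoxb1b* itself rose in its own mutants, by 22.1%, *hoxa1a* fell to 0.561 of its wildtype level, and neither *hoxb1a* nor *hoxc1a* passed the test. Thus 2 of the 4 genes passed, against 66.2% of all tested genes, with 1 of 4 higher in mutants (32.6% of tested genes) and 1 of 4 lower (33.6%). None of the 4 changed by more than 2-fold, against 8.36% of tested genes (1.7% higher and 6.66% lower in mutants). All 4 genes passed the filter on low counts, and all had whole-number counts (within 1e-09 of a whole number) in each of the 6 libraries, as 55.7% of the genes in the table did.

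The gene carrying the mutation, *hoxb1b*, was the best covered of the 4. It had 85.3, 84.2 and 83.8 CPM in mutant replicates 1, 2 and 3, from 1657, 1955 and 2482 counts. It had 70.6, 66.4 and 70.4 CPM in wildtype replicates 1, 2 and 3, from 1654, 1506 and 1373 counts. Every mutant library lay above every wildtype library, as for 33.7% of the tested genes, while 68.1% were separate in either direction. The mutant libraries were close to each other, with a coefficient of variation of 0.932%, against 3.43% in wildtype libraries. All mutant values lay inside the counting interval of mutant replicate 1 alone, 81.3 to 89.5 CPM (95%, exact Poisson). Counting error thus allows a wider spread than was seen, and the 2 coefficients are not read as a difference between genotypes. On the log2 scale *hoxb1b* was 0.29 ± 0.03 higher in mutants (± standard error), with an adjusted p of 8.71e-09 by edgeR's quasi-likelihood test and a 95% interval of the change from 16.6% to 27.9% higher in mutants, well short of a doubling. Of the tested genes, 82.7% had a lower log2 fold change. A transcript is counted whether or not it carries the mutation, as the table gives counts per gene without positions, so these values are not a measure of Hoxb1b protein.

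**Figure D1:**
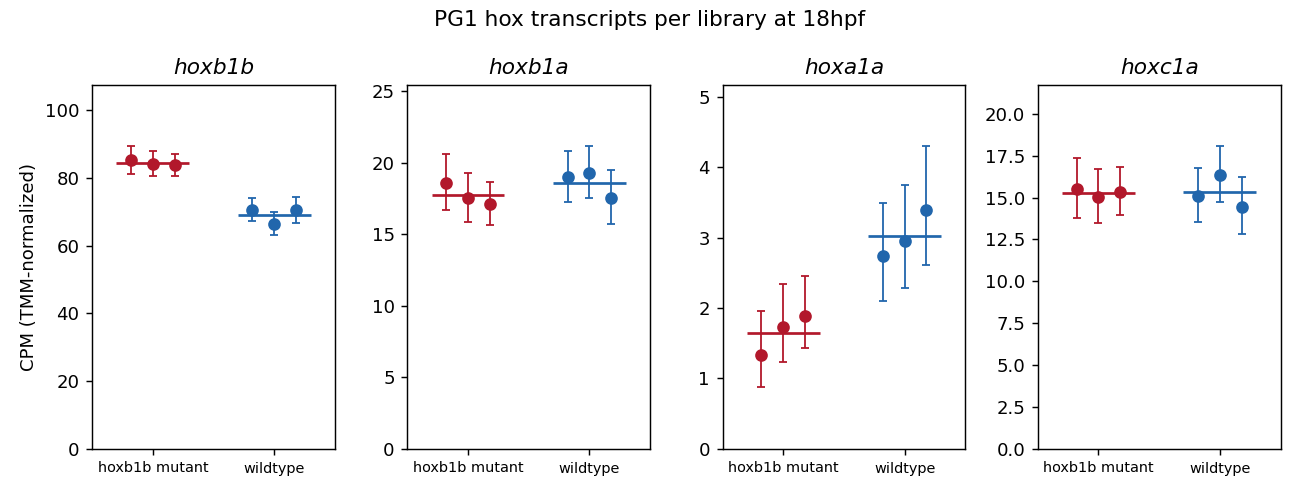
Normalized expression (CPM, vertical axes from 0) of the 4 PG1 *hox* genes in the 3 *hoxb1b* mutant libraries (red, left) and the 3 wildtype libraries (blue, right); bars on each point are 95% Poisson intervals of its count, covering counting error only, and horizontal lines are means. The genotypes are separate for *hoxb1b*, which is higher in mutants (83.8 to 85.3 CPM), and for *hoxa1a*, which is lower (1.34 to 1.89 CPM), and they overlap for *hoxb1a* and *hoxc1a*.

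Among the paralogs of the mutated gene, *hoxb1a* is the one whose r4 expression *hoxb1b* is known to help start. It had 18.6, 17.5 and 17.1 CPM in mutant replicates 1, 2 and 3, from 361, 407 and 507 counts. It had 18.99, 19.3 and 17.5 CPM in wildtype replicates 1, 2 and 3, from 445, 438 and 342 counts. The genotypes overlapped, since mutant replicate 1 lay above wildtype replicate 3. The log2 difference of -0.08 ± 0.06 (edgeR adjusted p = 0.249) has a 95% interval from -13.0% to 3.05%. Changes of *hoxb1a* within that interval are not resolved at this depth.

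*hoxa1a* was the only member to fall, and it was also the least covered. It had 1.34, 1.72 and 1.89 CPM in mutant replicates 1, 2 and 3, from 26, 40 and 56 counts. It had 2.73, 2.95 and 3.38 CPM in wildtype replicates 1, 2 and 3, from 64, 67 and 66 counts. Every mutant library lay below every wildtype library, as for 34.5% of the tested genes. The highest mutant library nonetheless had a counting interval, 1.43 to 2.46 CPM (95%, exact Poisson, counting error only), that reached into that of the lowest wildtype library, 2.10 to 3.49 CPM, so the difference rests on the libraries together. Over 3 libraries, 122 counts were found in mutants and 197 in wildtype. On the log2 scale the difference was -0.83 ± 0.17 (edgeR adjusted p = 7.52e-05), with a 95% interval of the change from -55.7% to -28.9%. The estimate falls short of the study's criterion of a change above 2-fold, although a 2-fold reduction lies inside that interval. When single libraries were left out the log2 difference lay between -0.95 (without mutant replicate 3) and -0.72 (without mutant replicate 1). Only 8.86% of the tested genes had a lower log2 fold change, and only 15.1% had a lower mean expression.

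*hoxc1a* differed least between genotypes. It had 15.5, 15.03 and 15.3 CPM in mutant replicates 1, 2 and 3, from 301, 349 and 454 counts. It had 15.1, 16.4 and 14.5 CPM in wildtype replicates 1, 2 and 3, from 354, 371 and 282 counts. All mutant libraries lay within the range of the wildtype libraries. The log2 difference was -0.01 ± 0.06 (edgeR adjusted p = 0.944), and it took the opposite sign under total count scaling, without the filter, and without mutant or wildtype replicate 2. Its 95% interval, from -9.02% to 9.06%, leaves room for changes of that size. *hoxc1a* and *hoxb1a* had similar counts and intervals of similar width, that of *hoxb1a* (-13.0% to 3.05%) lying further below 0.

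Ratios between members were formed within each library, where the scaling between libraries has no part. They are ratios of counts and not of molecules, since transcript lengths were not used here, so only their differences between genotypes were compared. There were 4.59, 4.80 and 4.90 counts of *hoxb1b* per count of *hoxb1a* in mutant replicates 1, 2 and 3, against 3.72, 3.44 and 4.01 in wildtype replicates 1, 2 and 3. The mean log2 ratio was 0.36 higher in mutants, above the spread between libraries (SD 0.05 in mutant and 0.11 in wildtype libraries, n = 3 each), and the exact two-sided permutation test gave p = 0.1, which no comparison of 3 with 3 libraries can undercut. *hoxb1b* likewise stood higher against *hoxc1a*, with ratios of 5.50, 5.60 and 5.47 in mutant libraries and 4.67, 4.06 and 4.87 in wildtype libraries. *hoxa1a* stood lower against *hoxc1a*, with ratios of 0.0864, 0.115 and 0.123 in mutant libraries and 0.181, 0.181 and 0.234 in wildtype libraries. The widest gap lay between the genes that moved in opposite directions. There were 63.7, 48.9 and 44.3 counts of *hoxb1b* per count of *hoxa1a* in mutant libraries and 25.8, 22.5 and 20.8 in wildtype libraries. The ratio of *hoxb1a* to *hoxc1a* was the exception, as its genotypes overlapped (difference of -0.07 on the log2 scale, exact permutation p = 0.2). Among the 6 ratios, the other 5 each had an exact permutation p of 0.1, or 0.12 after Benjamini-Hochberg adjustment, so this design cannot bring any of them under 0.05. Each of these 5 holds *hoxb1b* or *hoxa1a*, the 2 members whose libraries were already separate, so they largely restate those changes. The 6 ratios share 4 genes and are not independent. Of single tested genes 68.1% were separate, and the share among other gene pairs was not computed.

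**Figure D2:**
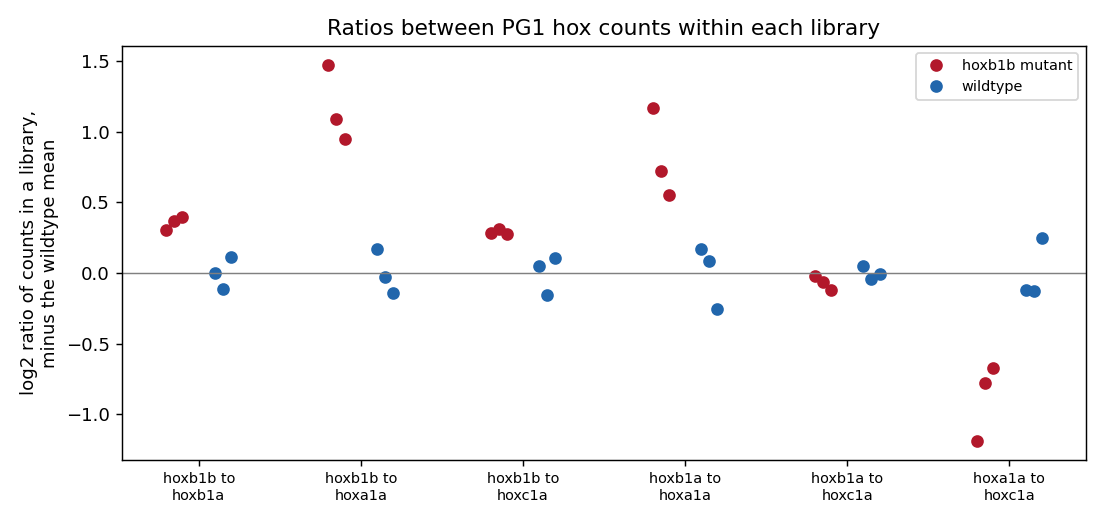
Log2 ratio of the counts of each pair of PG1 *hox* genes within a library, minus the wildtype mean of that ratio (vertical axis), for the 3 *hoxb1b* mutant libraries (red, left of each pair) and the 3 wildtype libraries (blue, right). The mutant libraries lie apart from the wildtype libraries for the 5 ratios that hold *hoxb1b* or *hoxa1a*, which are themselves separate between genotypes. They overlap them for *hoxb1a* to *hoxc1a*, where the means differ by -0.07.

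The table lists 48 *hox* genes, all of which were tested, and the PG1 genes were set beside the other 44. Of the 44, 25 rose, 10 fell and 9 did not pass the test, where 32.6% of all tested genes rose and 33.6% fell. Their median log2 fold change was 0.12. The PG1 genes had a median of -0.04 and all tested genes a median of -0.0034. Ordered from the lowest log2 fold change to the highest, *hoxa1a* was 3 of 48, *hoxb1a* 13, *hoxc1a* 18 and *hoxb1b* 30. Below *hoxa1a* stood only *hoxb13a* and *hoxc13a*, genes of the opposite end of the clusters and the only *hox* genes that changed by more than 2-fold. *hoxb13a* had a log2 fold change of -1.85 and *hoxc13a* of -1.20. Groups 2 to 4, which like PG1 pattern the hindbrain and anterior trunk, ranged from -0.19 to 0.57, a range that holds every PG1 gene apart from *hoxa1a*. In groups 9 to 13, 14 of 22 genes rose and 6 fell. Those that fell were *hoxc12b*, *hoxa13a*, *hoxb13a*, *hoxc13a*, *hoxc13b* and *hoxd13a*, all of groups 12 and 13. Their wildtype means lay between 2.32 CPM (*hoxb13a*) and 9.71 CPM (*hoxc13a*), beside 3.02 CPM for *hoxa1a*. *hoxa13b*, with 4.03 CPM in wildtype libraries, rose.

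**Figure D3:**
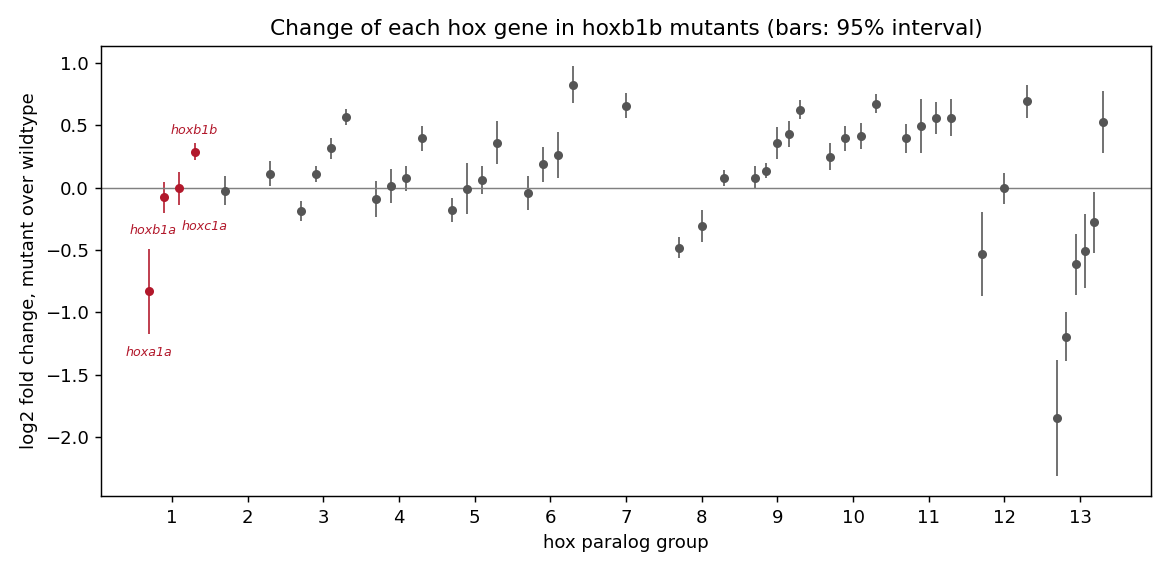
Log2 fold change, mutant over wildtype, of the 48 *hox* genes (vertical axis) by paralog group (horizontal axis), with 95% intervals from edgeR; PG1 genes are red. The estimate for *hoxa1a*, -0.83, lies below that of every gene of groups 2 to 11, although its interval overlaps that of *hoxb8a*. *hoxb1a* and *hoxc1a* have intervals that include 0.

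Each PG1 gene lies in a different Hox cluster, so its cluster neighbours were examined next. *hoxb1b* is the PG1 gene of the small hoxbb cluster, whose other genes did not rise with it. Of these 3 genes 66.7% passed the test, near the 66.2% of all tested genes. *hoxb8b* had 15.4 CPM in mutant and 18.95 CPM in wildtype libraries (log2 fold change -0.31, adjusted p = 8.88e-05 from edgeR), *hoxb5b* had 29.2 and 33.1 CPM (-0.18, adjusted p = 0.00126 from edgeR), and *hoxb6b* had 12.4 and 12.8 CPM (-0.04, adjusted p = 0.591 from edgeR). In the RefSeq annotation of GRCz12tu, which is not the build used for the counts, *hoxb5b* and *hoxb6b* overlap the span of *hoxb1b*. Their counts did not follow those of *hoxb1b*, and how the counting treated overlapping genes is not given in the sources used here. The next gene beyond *hoxb1b* on the other side, *skap1*, named for its position and outside the list of neighbours, had a log2 fold change of 0.28 that did not pass the test (adjusted p = 0.0594 from edgeR).

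*hoxb1a* lies in the hoxba cluster next to *hoxb2a*, an r3 to r5 gene that PG1 proteins are known to activate in the mouse. *hoxb2a* had a log2 fold change of -0.03 (adjusted p = 0.692 from edgeR), and did not pass the test. The gene on the other side, *cbx1a*, named for its position, fell by 0.15 (adjusted p = 1.98e-06 from edgeR). Of the 10 other genes of the cluster, 5 rose, 2 fell and 3 did not pass. The 70.0% that passed were near the 66.2% of all tested genes. *hoxb3a*, *hoxb6a* and *hoxb9a* rose by 0.11, 0.19 and 0.14, and *hoxb7a* and *hoxb10a* by 0.65 and 0.67, while *hoxb8a* fell by 0.48 and *hoxb13a* fell by 1.85 on the log2 scale. *hoxb4a* (0.01) and *hoxb5a* (0.06) did not pass.

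*hoxa1a* had the lowest log2 fold change of the hoxaa cluster, although its interval overlapped that of *hoxa13a* (-0.81 to -0.21). Of the 7 others, *hoxa13a* fell by 0.51, *evx1*, a homeobox gene linked to this cluster, fell by 0.24, and *hoxa3a*, the nearest *hox* gene, fell by 0.19 on the log2 scale. *hoxa9a*, *hoxa11a* and *hoxa5a* rose by 0.63, 0.49 and 0.36, and *hoxa4a* (0.07) did not pass the test. Thus 85.7% of the 7 genes passed, against 66.2% of all tested genes. In the same RefSeq annotation the spans of *hoxa1a* and *evx1* overlap, so reads of the pair may overlap. *evx1* had 5.21 CPM in mutant and 6.15 CPM in wildtype libraries, a smaller difference than that of *hoxa1a*. The gene on the other side of *hoxa1a*, *snx10a*, also outside the list, fell by 0.96 (adjusted p = 8.58e-07 from edgeR).

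In the hoxca cluster, *hoxc1a* did not follow its neighbour *hoxc3a*, which had 105.9 CPM in mutant and 71.5 CPM in wildtype libraries (log2 fold change 0.57, adjusted p = 1.20e-15 from edgeR). On its other side *cbx5*, also named for its position, fell by 0.27 (adjusted p = 7.90e-12 from edgeR). Of the 10 other genes of this cluster, 5 rose, 1 fell and 4 did not pass the test. The share that passed was 60.0%, against 66.2% of all tested genes. Those that rose besides *hoxc3a* were *hoxc11a* (0.56), *hoxc6a* (0.26), *hoxc10a* (0.25) and *hoxc8a* (0.08), and *hoxc13a* fell. *hoxc4a* (-0.09), *hoxc5a* (-0.01), *hoxc9a* (0.08) and *hoxc12a* (-0.01) did not pass, as *hoxc1a* did not.

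Expression of the TALE genes, whose products bind DNA together with PG1 proteins, was compared in the same fit. Of 14 listed genes, 12 are in the table and were tested, 2 rose and 6 fell, with a median log2 fold change of -0.08. The share that passed, 66.7%, was near the 66.2% of all tested genes. *pbx1a*, a Pbx partner of Hox proteins, averaged 3.05 ± 0.0758 CPM (SD, n = 3) in mutants, against 5.94 ± 0.538 CPM (SD, n = 3) in wildtype, and so fell by 0.96 on the log2 scale (edgeR adjusted p = 3.39e-08). *pbx3b* fell by 0.72 and *meis2a* by 0.33, *pknox2*, a Prep family gene, fell by 0.24, and *meis1a* rose by 0.23. The early Pbx gene of the zebrafish hindbrain, *pbx4*, chosen after its value was seen, had 305 CPM in mutant and 339.7 CPM in wildtype libraries, a log2 fold change of -0.15 (adjusted p = 9.52e-05 from edgeR). *meis3* (-0.01), whose product acts with Hoxb1b in zebrafish embryos, did not pass the test, and no TALE gene changed by more than 2-fold.

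The RA pathway lies upstream of *hoxb1b* in the model that the study gives. All 20 listed genes were tested, of which 13 rose, 3 fell and 4 did not pass, with a median log2 fold change of 0.14. The share that passed was 80.0%, against 66.2% of all tested genes, of which 32.6% rose. The largest change was in *cyp26b1*, which encodes an RA-degrading enzyme, with 18.7 CPM in mutant and 41.2 CPM in wildtype libraries (log2 fold change -1.13, adjusted p = 2.47e-18 from edgeR). It was followed by the RA receptor gene *rargb* (0.70), by *dhrs3b* (-0.56) and its paralog *dhrs3a* (0.46), which encode reductases of retinaldehyde, and by *crabp2b* (0.49), which encodes an RA-binding protein. Of the 20 genes only *cyp26b1* changed by more than 2-fold.

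Among the genes of the caudal hindbrain network, in which *hoxb1b* and *hoxb1a* act, 12 of 17 rose, 2 fell and 3 did not pass, with a median log2 fold change of 0.25. In all 82.4% passed, against 66.2% of all tested genes, of which 32.6% rose. The largest changes were in *fgf8a* (1.01) and *fgf3* (0.55), which encode the FGF ligands of r4, *irx7* (0.82), *egr2b* (0.78), also called *krox20* and expressed in r3 and r5, and *hnf1ba* (0.66), a regulator of r5/r6. *egr2b* averaged 47.6 ± 1.15 CPM (SD, n = 3) in mutants, against 27.9 ± 0.563 CPM (SD, n = 3) in wildtype. The members of this list that did not pass were *egr2a* (-0.05), *mafba* (-0.06), which is *valentino*, and *hoxb2a*. In the mutants *hoxb1a* thus had transcript levels that did not pass the test beside *egr2b* and *irx7*, which rose. Where in the embryo any of these transcripts lay is not seen in these libraries.

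PG1 mutants are known for changes in the facial motor neurons that are born in r4. Of 12 genes listed for these neurons and their migration, all are in the table and 11 were tested, 4 rose, 3 fell and 4 did not pass. The 63.6% that passed were near the 66.2% of all tested genes. *phox2bb*, a determinant of branchiomotor neurons, had 10.2 CPM in mutant and 15.5 CPM in wildtype libraries (log2 fold change -0.60, adjusted p = 3.75e-08 from edgeR). *tbx20* rose by 0.45, and *prickle1b*, which is required for facial neuron migration in zebrafish, rose by 0.41. *cxcr4b* rose by 0.34, and *celsr2* fell by 0.24 on the log2 scale. *isl1* (0.07), *phox2a* (-0.19), *vangl2* (0.05) and *scrib* (0.02) did not pass.

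**Figure D4:**
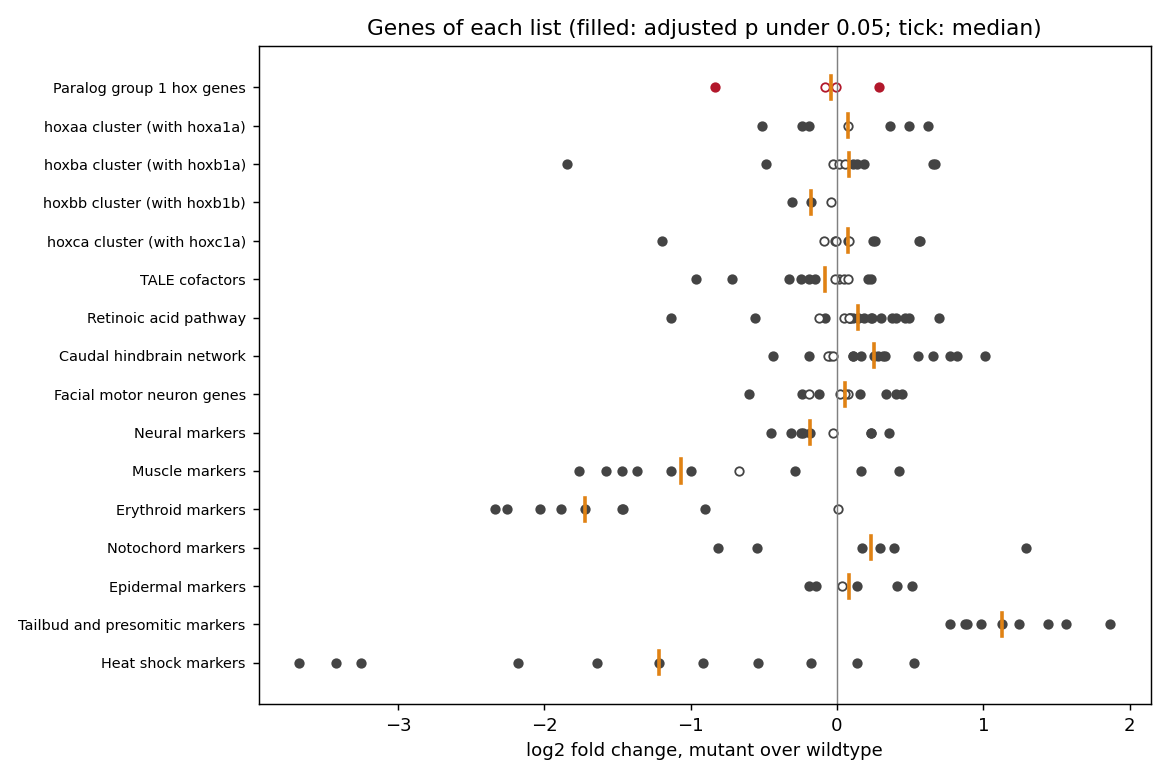
Log2 fold change, mutant over wildtype (horizontal axis), of each tested gene of the PG1 genes (red), of the other genes of each Hox cluster, of the pathway lists and of the tissue marker lists; filled points had an adjusted p under 0.05 from edgeR, open points did not, and orange ticks are medians. The PG1 genes range from -0.83 to 0.29, while erythroid, muscle and heat shock lists have medians of -1.72, -1.07 and -1.22. The tailbud and presomitic list lies on the other side of 0, with a median of 1.13.

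Genes whose profiles over the 6 libraries were most like those of the PG1 genes are given as a description, since the points fall into 2 genotypes and the genes share the libraries. Among 47 other *hox* genes, *hoxb7a* was most like *hoxb1b* (Pearson's r of log2 CPM 0.99), followed by *hoxd4a* and *hoxc3a* (0.97 each). *hoxc13a*, *hoxa13a* and *hoxb8a* were most like *hoxa1a* (0.94, 0.94 and 0.93). For *hoxb1a* the highest value was 0.72, with *hoxb8b*, and for *hoxc1a* it was 0.69, with *hoxb4a*. Among 7946 genes with at least 10 CPM, *exoc5* came closest to *hoxb1b*, *gmppb* to *hoxa1a*, *zgc:162544* to *hoxb1a* and *rps18* to *hoxc1a*, with r of 0.999, 0.999, 0.964 and 0.980. Within PG1 the profiles of *hoxb1b* and *hoxa1a* ran opposite (r = -0.92), and those of *hoxb1a* and *hoxc1a* had an r of 0.63.

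The changes of the PG1 genes were recomputed under 17 alternatives. *hoxb1b* lay between 0.26 and 0.33 and *hoxa1a* between -0.95 and -0.72 on the log2 scale, and no alternative brought either past 2-fold. *hoxb1a* lay between -0.12 and -0.03 and did not pass the test under any of them. The call of *hoxb1b* rested on the small spread between these libraries. The coefficient of variation beyond counting noise was 1.85%, a common value over all tested genes and not one of *hoxb1b* alone. If pools of embryos were assumed to vary by 20%, the adjusted p of *hoxb1b* was 0.572 and that of *hoxa1a* was 0.0271 (edgeR's likelihood ratio test with fixed dispersion). With an assumed 10%, chosen after seeing the data, *hoxb1b* had an adjusted p of 0.0499 and *hoxa1a* of 0.000219.

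**Figure D5:**
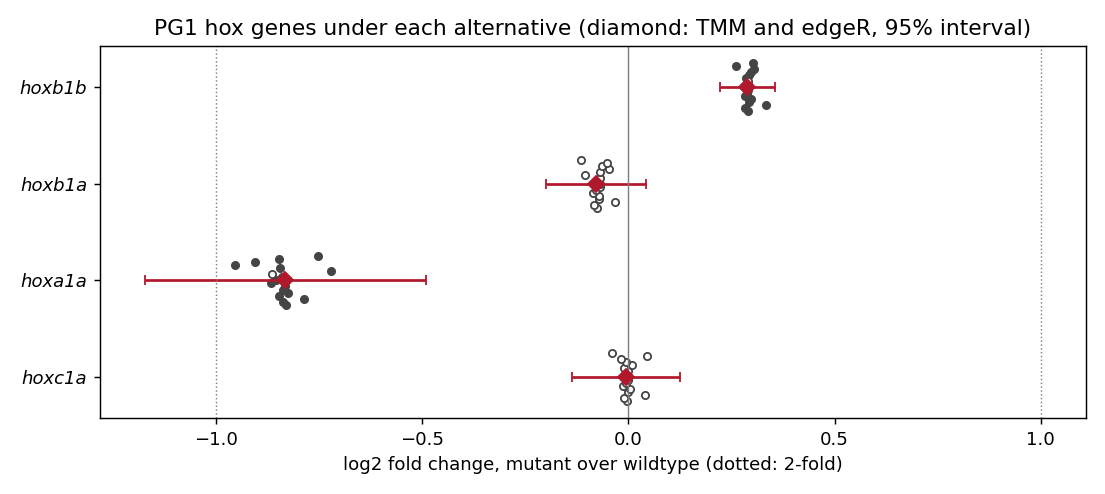
Log2 fold change, mutant over wildtype (horizontal axis), of the 4 PG1 *hox* genes; red diamonds with bars are the values with TMM normalization and edgeR's quasi-likelihood test with their 95% intervals, and points are the 17 alternatives, filled where the adjusted p was under 0.05. *hoxb1b* stays between 0.26 and 0.33 and *hoxa1a* between -0.95 and -0.72, short of the dotted 2-fold lines, and *hoxc1a* lies on both sides of 0.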

How the data were processed

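RNA-seq of polyadenylated RNA was compared between 3 *hoxb1b* mutant and 3 wildtype libraries, grouped by their titles. The authors deposited estimated counts per gene and library, not normalized; the submitters' processing notes name RSEM 1.2.28, DESeq2, and the builds GRCz10 and danRer7. The aligner is not given in the sources used here. The deposited table also holds the p-value (adjusted), log2 fold change and fold change (ratio) of the authors' own comparison, which were not used.

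Estimated counts were rounded. Using edgeR 4.0.16 under R 4.3.3, the filterByExpr function kept 12471 of 13466 genes, which were normalized by TMM and tested with the quasi-likelihood test (glmQLFTest) with genotype as the factor and Benjamini-Hochberg adjustment over all tested genes. The standard error is the log2 fold change divided by the square root of F. CPM values are counts scaled to the normalized library size. A library of 19139322 counts allows up to 0.154 CPM for a count of 0. Poisson intervals (95%) cover counting error only. Scripts were tested on simulated data.

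Members and lists were chosen with earlier results of these data known. The text names the members, their cluster neighbours, and of each other list up to 5 genes that passed with the largest change, or genes that did not pass; others are marked. Likeness was measured over genes of at least 10 CPM. Alternatives were other scalings, DESeq2 1.42.0, other filters (none, or at least 10 counts in every library), unrounded counts, a replicate block, each library left out, and assumed variation between pools. Names of neighbouring genes come from RefSeq (GRCz12tu), in which all 4 members were matched. Figures used Python 3.11.15 and matplotlib 3.10.9.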

Additional observations from a re-analysis of the deposited data

How the results depend on the processing

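Every change of sign concerned *hoxc1a*, whose log2 fold change was 0.040 with total count scaling and 0.0030 without the filter. With each library left out in turn it lay between -0.041 and 0.046, that of *hoxb1a* between -0.12 and -0.05, that of *hoxa1a* between -0.95 and -0.72 and that of *hoxb1b* between 0.26 and 0.31. The log2 ratio of *hoxb1b* to *hoxb1a* counts then differed by 0.30 to 0.41. With an assumed coefficient of variation of 20% between pools, the log2 fold change of *hoxb1b* was 0.29 and no longer passed (adjusted p = 0.572 from edgeR), and 1590 genes passed the test over all genes, against 8254. With assumed values of 10% and 40%, chosen after seeing the data, 4310 and 263 genes passed. At 40%, neither *hoxb1b* (0.29, adjusted p = 1.00 from edgeR) nor *hoxa1a* (-0.87, adjusted p = 0.799 from edgeR) passed, and 263 genes passed both criteria, against 1043. These fits used edgeR's likelihood ratio test with a fixed dispersion, so both the test and the spread changed. Libraries with the same replicate number in their titles had deviations from the genotype mean with r of -0.06 to 0.08. Other pairs of a mutant and a wildtype library had r of -0.09 to 0.05. The column headers number the mutant libraries differently from the titles, so values this close to 0 do not settle whether libraries were paired. The replicate block used the title numbers. With the replicate block the log2 fold changes were 0.29 for *hoxb1b*, -0.07 for *hoxb1a*, -0.87 for *hoxa1a* and 0.00 for *hoxc1a*, and no call of these genes changed. The low counts of *hoxa1a* and the unmeasured variation between pools limit its precision.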
